A study of Bos taurus with 15 samples.

Results

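Genes of the goblet cell secretion were sought in the single-cell transcriptomes of the cattle digestive tract: MUC2, FCGBP, CLCA1, SPINK4, ZG16 and AGR2. They were chosen by symbol, and 3 of these 6 were found among the 27270 genes of the deposited tables, namely CLCA1 (ENSBTAG00000008161), SPINK4 (ENSBTAG00000032093) and AGR2 (ENSBTAG00000024406). No symbol matched the other 3 genes, and 7540 of the 27270 genes carry an identifier in place of a symbol, so MUC2, FCGBP and ZG16 have no value here. Goblet cells are the epithelial cells that make and release the mucus of the gut. MUC2 is the gel-forming mucin of intestinal mucus, and FCGBP, CLCA1 and ZG16 are secreted with it. CLCA1 is a metalloprotease of the mucus layer, SPINK4 is a small secreted peptide with a Kazal-type serine protease inhibitor domain, and AGR2 is a protein disulfide isomerase of the endoplasmic reticulum that mucin folding requires.

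The 15 libraries came from Holstein dairy cattle, with 1 library for each tissue and stage. The newborn (NB) group, from 3 calves, held the salivary gland and liver, the stomach compartments reticulum, omasum and abomasum, and the intestine as duodenum, jejunum and ileum, then cecum, colon and rectum, and which calf gave which library is not named. The adult (AD) group held the duodenum, jejunum, cecum and colon of 1 lactating cow. EDTA and trypsin preceded the tissue enzymes for the NB gut and not for the AD gut, so stage, animal and dissociation cannot be told apart. The AD duodenum and cecum were dissociated with 1 kit, and the AD jejunum and colon with another, for longer. The NB stomach compartments were given other enzymes than the NB intestine. Between these groups, tissue and dissociation cannot be told apart either. Total UMIs (molecules counted once by their identifier) were 17707625 to 129458578 per library, and 119798 of 172405 barcodes were kept. Epithelial barcodes were taken as those with an EPCAM UMI and no PTPRC UMI (EPCAM barcodes), and leukocyte barcodes as those with PTPRC and no EPCAM (PTPRC barcodes). EPCAM barcodes numbered 23883 in all, with the fewest (33) in the AD duodenum and the most (6578) in the NB omasum. Levels are CPM, the UMIs of a gene scaled to a common total over the summed barcodes of a library. With 1 library per tissue and stage there is no replicate error, and the 95% intervals (exact Poisson for CPM, exact Clopper-Pearson for shares) cover counting error only. In such a sum, fewer goblet cells and less RNA per cell cannot be told apart, so shares of barcodes are given beside the levels. The libraries shared 1 to 36 barcode sequences per pair, at most 0.512% of the smaller library.

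SPINK4 was an intestinal gene in these libraries. In NB EPCAM barcodes, SPINK4 stood at 1099 CPM (1089 to 1109) in the duodenum, 3032 CPM (3003 to 3061) in the jejunum and 4569 CPM (4518 to 4621) in the ileum. It stood at 636 CPM (614 to 660) in the cecum, 10940 CPM (10870 to 11000) in the colon and 1405 CPM (1382 to 1428) in the rectum. None of these 6 intervals overlapped another, the cecum being lowest and the colon highest. Single barcodes moved the levels beyond these intervals. Without the highest barcode of each library, SPINK4 stood at 465 CPM (446 to 485) in the cecum and 1272 CPM (1250 to 1294) in the rectum. The order of the 6 segments then stayed. With barcodes of COL1A2 or PECAM1 left out, the cecum stood at 1012 CPM, against 1098 CPM in the duodenum. Above the intestine the gene was nearly absent: 44 UMIs were found in 4792 abomasal EPCAM barcodes (0.700 CPM), 1 UMI in the omasum, and 0 UMIs in the reticulum, the salivary gland and the liver. A count of 0 allows up to 0.0619 CPM in the reticulum and up to 14.1 CPM in the salivary gland, whose 35 EPCAM barcodes were few.

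The SPINK4 signal was concentrated in a minority of epithelial barcodes. Barcodes with at least 3 SPINK4 UMIs numbered 180 of 3385 in the NB duodenum (5.32%), 190 of 1247 in the jejunum (15.2%), 140 of 624 in the ileum (22.4%), 23 of 452 in the cecum (5.09%), 258 of 867 in the colon (29.8%) and 112 of 1061 in the rectum (10.6%). They held 98.1% to 99.8% of the SPINK4 UMIs of the EPCAM barcodes in each of the 6 libraries. Within these barcodes SPINK4 was a major transcript, at 17460 CPM in the duodenum, 15290 CPM in the jejunum, 15120 CPM in the ileum, 13290 CPM in the cecum, 30130 CPM in the colon and 14410 CPM in the rectum. These levels are of barcodes chosen by SPINK4 itself and describe the class. The size of the class depended on the threshold, by unlike amounts among segments. With at least 10 SPINK4 UMIs it held 164 barcodes in the duodenum, 176 in the jejunum and 120 in the ileum. It then held 16 in the cecum, 186 in the colon and 71 in the rectum.

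AGR2 was the member with the widest range of tissues. In NB EPCAM barcodes it stood at 1208 CPM (1200 to 1217) in the abomasum, 2535 CPM (2520 to 2551) in the duodenum, 2722 CPM (2695 to 2750) in the jejunum and 2045 CPM (2011 to 2080) in the ileum. It stood at 832 CPM (806 to 859) in the cecum, 2713 CPM (2680 to 2745) in the colon and 3079 CPM (3045 to 3112) in the rectum. The jejunum and colon did not differ beyond their counting intervals, and the other neighbours in the order of levels did. This order depended on the barcodes kept. With doublets left in, AGR2 stood at 2638 CPM (2623 to 2653) in the duodenum, 2559 CPM (2534 to 2584) in the jejunum and 2658 CPM (2626 to 2690) in the colon. The salivary gland gave 221 CPM (162 to 294) from 47 UMIs, the liver 7.56 CPM (3.04 to 15.6) from 7 UMIs, and the reticulum and omasum 0.701 and 0.326 CPM. An AGR2 UMI was found in 83.7% of the EPCAM barcodes of the NB duodenum (2834 of 3385), 71.4% in the jejunum, 63.0% in the ileum, 47.6% in the cecum, 81.0% in the colon and 71.8% in the rectum. In PTPRC barcodes of the same 6 libraries the share was 4.95% to 29.9%, highest in the rectum (median depths 5240 to 11296 UMIs, against 7550.5 to 11983 in EPCAM barcodes). After thinning to 1000 UMIs the shares were 24.3% to 56.3% in EPCAM barcodes and 0.656% to 5.62% in PTPRC barcodes.

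CLCA1 had its highest NB level in the stomach. It stood at 762 CPM (756 to 769) in the EPCAM barcodes of the abomasum, the glandular stomach of ruminants, against 13.1 CPM (12.0 to 14.3) in the duodenum, 6.35 CPM (5.11 to 7.81) in the jejunum and 9.09 CPM (6.93 to 11.7) in the ileum. It stood at 19.4 CPM (15.6 to 23.8) in the cecum, 53.0 CPM (48.6 to 57.8) in the colon and 16.5 CPM (14.1 to 19.1) in the rectum. In the order of levels the jejunum and ileum, the duodenum and rectum, and the rectum and cecum did not differ beyond their counting intervals. Single barcodes carried much of the intestinal CLCA1, with 76 of the 90 UMIs of the cecum and 224 of the 521 UMIs of the colon in 1 barcode each. Without the highest barcode of each library, CLCA1 stood at 12.1 CPM in the duodenum, 5.86 CPM in the jejunum, 6.07 CPM in the ileum, 3.03 CPM (1.65 to 5.08) in the cecum, 30.3 CPM (26.9 to 33.9) in the colon, 12.9 CPM in the rectum and 759 CPM in the abomasum. The cecum was then the lowest of the 6 intestinal segments instead of the second highest, while the colon stayed the highest. At least 1 CLCA1 UMI was found in 53.1% of abomasal EPCAM barcodes (2546 of 4792), and in 1.60% to 4.15% of those of the 6 intestinal segments. In the reticulum and omasum CLCA1 was at 0.144 and 0.156 CPM, and its largest count in any EPCAM barcode there was 1 UMI.

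**Figure D1:**
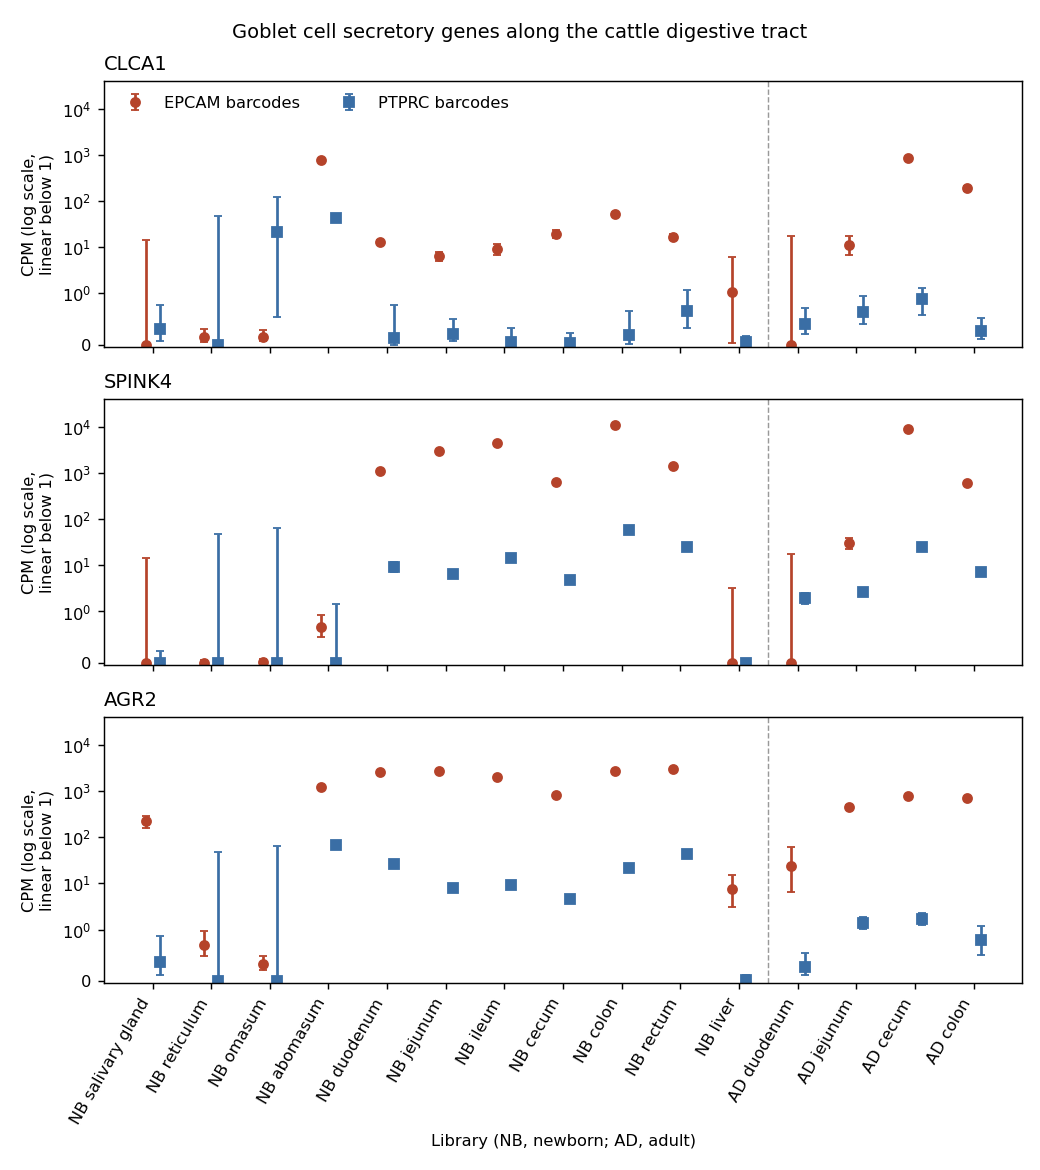
CPM of CLCA1, SPINK4 and AGR2 (vertical axes, logarithmic above 1 and linear below) in each of the 15 libraries, for EPCAM barcodes (circles) and PTPRC barcodes (squares). Bars are 95% Poisson intervals, and where the count is 0 the bar ends at 3 counts. SPINK4 is at most 0.700 CPM in libraries outside the intestine, CLCA1 reaches 762 CPM in the NB abomasum, and AGR2 is above 800 CPM in the abomasum and in every NB intestinal segment.

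PTPRC barcodes showed how much of each gene was found in cells that should lack it. SPINK4 in PTPRC barcodes was 4.82 to 57.3 CPM in the 6 NB intestinal libraries and highest in the colon, where EPCAM barcodes were also highest. There, 26.3% of 1512 PTPRC barcodes held a SPINK4 UMI (median depth 5428 UMIs), against 57.0% of EPCAM barcodes (median 9367 UMIs). With every barcode thinned to 1000 UMIs the shares were 6.71% and 29.1%. Only 32 of the 1512 PTPRC barcodes had at least 3 SPINK4 UMIs. CLCA1 in PTPRC barcodes was at most 0.654 CPM in the NB intestine and 43.6 CPM in the abomasum, where 22.1% of 339 PTPRC barcodes held a UMI, and 4.87% after thinning, against 53.1% and 27.5% of EPCAM barcodes. AGR2 in PTPRC barcodes was 4.67 to 43.3 CPM in the NB intestine and 66.8 CPM in the abomasum. In every NB library from abomasum to rectum, CLCA1 and AGR2 stood higher in EPCAM than in PTPRC barcodes with intervals apart, and so did SPINK4 in the 6 intestinal libraries. Within the NB colon, SPINK4 made up 79.8% of the UMIs of the 3 genes in EPCAM barcodes and 72.1% in PTPRC barcodes.

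The next comparison asked which genes accompanied SPINK4 within the NB intestinal epithelium. EPCAM barcodes with at least 3 SPINK4 UMIs were summed in each of the 6 NB intestinal libraries and set against the EPCAM barcodes of the same library with 0 SPINK4 UMIs. CLCA1 stood at 200 CPM against 0.581 CPM in the duodenum, 29.6 against 0.289 CPM in the jejunum, and 30.2 CPM against 0 UMIs in the ileum. It stood at 401 against 0.500 CPM in the cecum, 145 against 0.866 CPM in the colon and 121 against 5.36 CPM in the rectum. The lowest CLCA1 level of SPINK4 barcodes was 29.6 CPM (jejunum), and the highest of barcodes without SPINK4 was 5.36 CPM (rectum). Of the 88 CLCA1 UMIs of the 23 cecal SPINK4 barcodes, 76 lay in 1 barcode, and the others gave 61.2 CPM (31.6 to 107). Without the highest barcode of each library the SPINK4 barcodes held 20.2 CPM (ileum) to 185 CPM (duodenum) of CLCA1, still above 5.36 CPM. CLCA1 was higher by 7.50 ± 0.646 on the log2 scale (SE, 6 pairs of sums, edgeR adjusted p = 5.66e-05). AGR2 stood at 19020 against 1438 CPM in the duodenum, 9934 against 946 CPM in the jejunum and 4332 against 1012 CPM in the ileum. It stood at 7062 against 524 CPM in the cecum, 5512 against 1102 CPM in the colon and 7464 against 2508 CPM in the rectum. The cecal AGR2 level also rested on few barcodes, with 885 of 1550 UMIs in 1 barcode and 3390 CPM without it. AGR2 was thus 2.98 to 13.5 times higher in SPINK4 barcodes, in 6 of 6 libraries, by 3.31 ± 0.400 on the log2 scale (edgeR adjusted p = 0.000359). Of 9616 genes tested, 972 were called higher (10.1%) and 1224 lower (12.7%), and CLCA1 and AGR2 were both among the genes called higher. These p-values measure the spread between 6 gut segments of at most 3 calves, not between animals. The filter on low counts before the test admitted a gene through either class alone. CLCA1 could pass it only through the SPINK4 barcodes, and so could other genes near 0 in the other class, such as SPDEF, ATOH1 and REP15 below. Counts over tested genes, here and below, are conditional on that filter. With no such filter, CLCA1 was higher by 7.45 and AGR2 by 3.255 on the log2 scale.

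The genes overlapped unevenly barcode by barcode. Of the 903 SPINK4 barcodes of the NB intestine, 887 (98.2%) held an AGR2 UMI and 169 (18.7%) held a CLCA1 UMI. Of the 95 barcodes with at least 3 CLCA1 UMIs, 93 (97.9%) held a SPINK4 UMI and all 95 an AGR2 UMI. Among all EPCAM barcodes of the 6 libraries, a SPINK4 UMI was held by 13.5% (cecum) to 57.0% (colon). An AGR2 UMI was held by 47.6% to 83.7%. CLCA1 barcodes of the NB intestine thus nearly all held at least 1 SPINK4 UMI, while most SPINK4 barcodes had no CLCA1 UMI at this depth. CLCA1 was also far less abundant than SPINK4 in every one of these libraries, and the part of abundance in the uneven overlap was not tested.

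**Figure D2:**
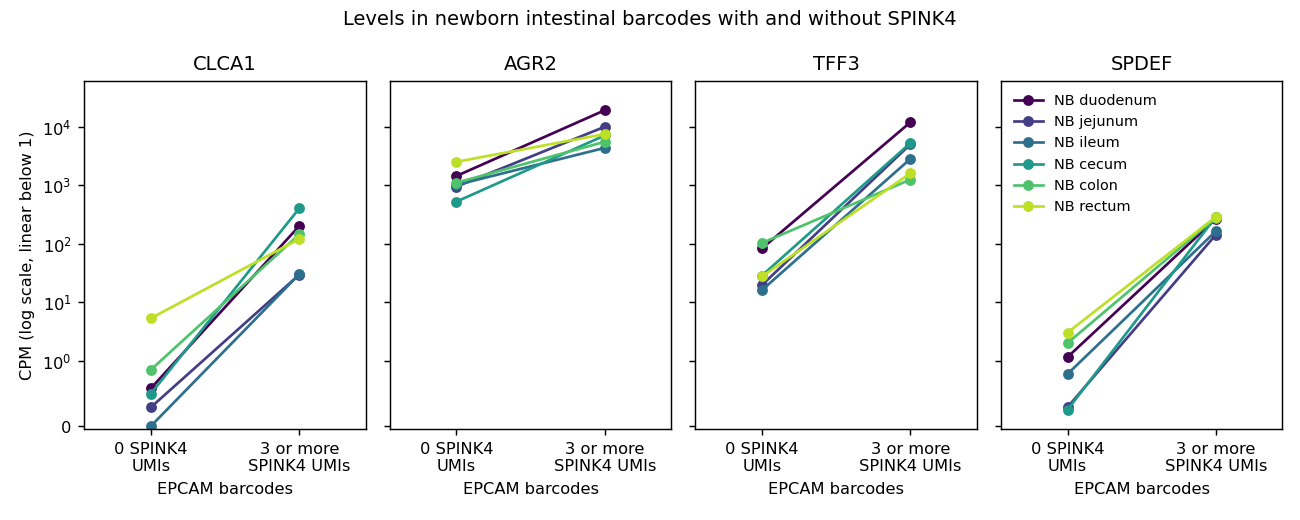
CPM (vertical axis, logarithmic above 1 and linear below) of CLCA1, AGR2, TFF3 and SPDEF in EPCAM barcodes with 0 and with 3 or more SPINK4 UMIs, 1 line for each of the 6 NB intestinal libraries. Every line rises, AGR2 from a level of 524 to 2508 CPM and the other genes from at most 103 CPM.

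Other goblet cell genes rose with SPINK4, though not every SPINK4 barcode held them. Of the 903 SPINK4 barcodes, 661 (73.2%) held a TFF3 UMI and 619 (68.5%) an SPDEF UMI. Whether these barcodes form 1 cell type was not tested. Of 10 listed transcription factors of the secretory lineage, 9 passed the filter on low counts. All 9 were called higher, with a median log2 difference of 3.34, against -0.05 over all genes tested. The lists were chosen with earlier results of these data known, so their counts describe the class. SPDEF, which drives goblet cell maturation, stood at 142 to 287 CPM in SPINK4 barcodes and at 0.250 to 3.04 CPM in barcodes without (log2 difference 8.15, edgeR adjusted p = 4.18e-06). ATOH1, which commits progenitors to the secretory lineage, stood at 50.7 to 137 CPM against 0.868 to 4.25 CPM (5.96, adjusted p = 1.65e-05). Of 8 tested genes of a list of other goblet cell genes (15 listed, 11 found in the data), 6 were called higher and 1 lower. TFF3, the trefoil peptide of intestinal mucus, stood at 1245 to 11800 CPM against 16.2 to 103 CPM (7.17, adjusted p = 0.000138), KLK1, a kallikrein, at 31.9 to 193 CPM against 0.232 to 2.75 CPM (7.25, adjusted p = 6.59e-05), and REP15 at 13.9 to 22.8 CPM against 0 to 1.30 CPM (6.22, adjusted p = 6.57e-05). The gene that fell was CLCA4, a relative of CLCA1, at 0 to 7.04 CPM against 19.4 to 384 CPM (-4.51, adjusted p = 2.42e-05). CLCA1 and CLCA4 thus moved in opposite directions in the same barcodes.

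Genes of protein folding and mucin assembly moved by smaller amounts. Of 19 tested genes of endoplasmic reticulum folding and secretion, which include partners and relatives of AGR2, 15 were called higher and 0 lower (median log2 difference 0.96). HSPA5, the main chaperone of that compartment, stood at 470 to 1542 CPM against 266 to 682 CPM (1.40, edgeR adjusted p = 0.0137). AGR3, the closest relative of AGR2, stood at 49.8 to 137 CPM against 57.7 to 123 CPM and was not called (0.46, adjusted p = 0.102). Of 13 tested mucin glycosylation genes, 8 were called higher and 1 lower (median 0.75), of which GALNT7 (0.48) and GALNT3 (0.75) had a higher CPM in only 2 and 3 of 6 libraries. GCNT3, which makes branched O-glycans, stood at 8.54 to 222 CPM against 1.07 to 51.1 CPM and was higher in 6 of 6 libraries (2.37, adjusted p = 0.00234). GALNT6, which starts O-glycans, stood at 5.71 to 31.2 CPM against 0.772 to 3.91 CPM (3.39, adjusted p = 4.09e-05), and GCNT1 at 0 to 2.74 CPM against 4.04 to 16.1 CPM (-2.18, adjusted p = 0.00236). Of 9 mucin granule and exocytosis genes, 2 (SYTL2 and RAB3D) were called higher and 1 (VAMP8) lower. Of 3 other mucins tested, MUC13 was called lower (-1.17, adjusted p = 0.0269), and MUC1 (1.85, adjusted p = 0.0734) and MUC20 (1.89, adjusted p = 0.0858) were not called. Of 5 Notch pathway genes, the ligands DLL1 (2.35) and DLL4 (1.53) were called higher and JAG1, NOTCH1 and HES1 were not called.

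The counts of small differences rested on the scaling. The 10 highest genes held 26.3% to 56.1% of the UMIs of SPINK4 barcodes, and 14.3% to 31.3% of barcodes without SPINK4. With totals as the only scaling, in place of TMM (the trimmed mean of M values), 349 genes were called higher and 3184 lower, the median of all genes moved from -0.05 to -0.58, and the folding list gave 7 higher and 1 lower of 19. On that scale the mucin glycosylation list gave 5 higher and 1 lower of 13, the granule list 3 higher and 3 lower of 9, and the other mucins 2 higher and 1 lower of 3, so that MUC1 and MUC20 were then called higher. CLCA1 (7.18), AGR2 (2.81), TFF3 (6.68) and 8 of the 9 transcription factors were still called higher on that scale.

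Markers of other cell types were lower in SPINK4 barcodes. Of 7 tested absorptive enterocyte markers, 5 were called lower and 0 higher. APOA1, the apolipoprotein of enterocyte lipid export, stood at 1.01 to 501 CPM against 11.2 to 19570 CPM (-4.32, edgeR adjusted p = 4.18e-06). All 7 stromal and endothelial markers and all 4 tested leukocyte markers were called lower as well. The summed stromal and endothelial markers were 14.1 to 1120 CPM in SPINK4 barcodes and 182 to 4320 CPM in barcodes without, and the summed leukocyte markers were 63.2 to 278 CPM and 222 to 1550 CPM. With barcodes of COL1A2 or PECAM1 left out, which left 5 libraries, CLCA1 stayed higher by 7.08 and AGR2 by 2.98 on the log2 scale. Of 5 tested stem and proliferation markers, ASCL2 was called higher (2.02, adjusted p = 0.00519), and of 6 simple epithelium markers, KRT18 was called higher (2.77, adjusted p = 0.00290), whereas EPCAM was not called (0.24, adjusted p = 0.246). Of 2 tested enteroendocrine markers, CHGA was called lower (-2.89), and none of the tuft cell markers passed the filter on low counts.

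**Figure D3:**
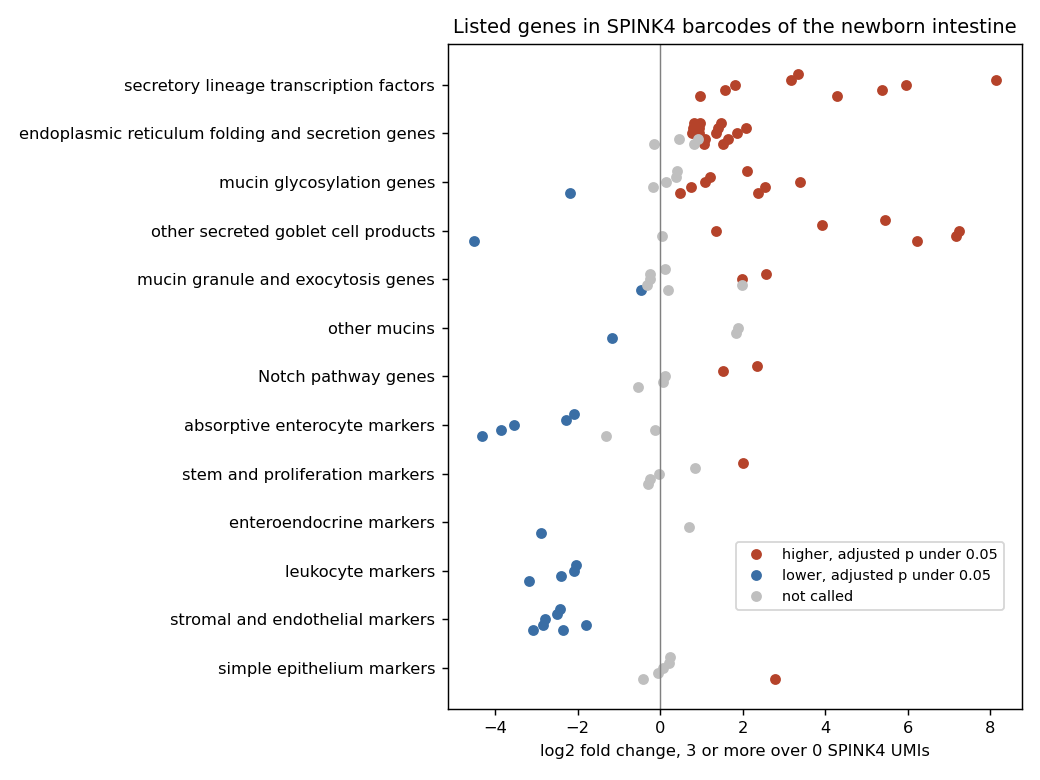
Log2 difference between EPCAM barcodes with 3 or more and with 0 SPINK4 UMIs (horizontal axis, TMM scaling, 6 NB intestinal libraries) for the tested genes of each list, 1 point a gene. All 9 tested secretory lineage transcription factors lie right of 0, and all 7 stromal and endothelial and 4 tested leukocyte markers lie left of 0. Which genes were tested depended on the filter on low counts.

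Outside the lists, the largest rises included those of secreted proteins. MPTX, a pentraxin, stood at 478 to 148800 CPM in SPINK4 barcodes and at 0.724 to 56.1 CPM in barcodes without SPINK4 (10.82, edgeR adjusted p = 4.18e-06). LYSB, a lysozyme, stood at 2066 to 25830 CPM against 4.93 to 26.6 CPM (10.25, adjusted p = 6.67e-06). ENSBTAG00000005759, which carries no symbol, stood at 14.1 to 83210 CPM against 0.145 to 55.9 CPM (10.67, adjusted p = 4.09e-05), and ENSBTAG00000011941 at 148 to 12110 CPM against 0 to 9.52 CPM (8.92, adjusted p = 7.46e-06). PLA2G2C, a secreted phospholipase (7.14), RAP1GAP, a GTPase activator (7.02), and RAB26, a small GTPase of secretory granules (6.45), followed. Lysozyme genes lie in a multigene family in cattle, and how reads were split among its copies is not known here. The largest falls were those of RBP2 (-4.18), SLC51A (-4.10), ENSBTAG00000049125 (-4.01), FABP1 (-4.00), S100G (-3.92), TM4SF20 (-3.87), PRAP1 (-3.83) and RDH16 (-3.82), several of which serve the uptake of lipids, retinol or calcium in enterocytes.

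In the abomasum CLCA1 was found without SPINK4. Of its 4792 EPCAM barcodes, 1553 held at least 3 CLCA1 UMIs and 2246 held none, and the values below compare barcodes of 1 library without a test. AGR2 stood at 3692 CPM (3663 to 3721) in CLCA1 barcodes and at 218 CPM (212.5 to 223) in barcodes without CLCA1, and an AGR2 UMI was held by 1506 of the 1553 (97.0%), by 60.7% of the 2246 barcodes without CLCA1 and by 32.7% of abomasal PTPRC barcodes (median depths 10535, 13675 and 4881 UMIs). SPINK4 had 1 UMI in all 1553 CLCA1 barcodes and 37 UMIs in the 2246 others. All 3 trefoil peptides were higher in CLCA1 barcodes: TFF2 stood at 10010 against 224 CPM, TFF1 at 1702 against 76.2 CPM and TFF3 at 521 against 55.7 CPM. TFF2 was not particular to the stomach, since in SPINK4 barcodes of the NB intestine it stood at 2.51 to 14680 CPM against 0 to 360 CPM and was called higher (5.46, edgeR adjusted p = 0.00518). SPDEF stood at 263 against 32.1 CPM, GCNT3 at 284 against 17.9 CPM and CREB3L1 at 193 against 35.3 CPM, while ATOH1 had 1 UMI in either class. The proton pump subunits of parietal cells were lower in CLCA1 barcodes, ATP4A at 172 against 1390 CPM and ATP4B at 111 against 845 CPM. General epithelial genes were higher in CLCA1 barcodes too, EPCAM at 484 against 225 CPM, KRT8 at 829 against 137 CPM and KRT19 at 689 against 93.3 CPM. So was MKI67, at 13.9 against 1.26 CPM. CYM (chymosin) stood at 155900 against 275800 CPM, a share of the total that lowers the CPM of other genes. In the abomasum, CLCA1 barcodes were thus high in AGR2 and SPDEF, among other epithelial genes, with SPINK4 and ATOH1 at 1 UMI each.

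Levels in the small and large intestine of newborns were compared over 3 libraries each. Different segments, with 1 library each, stood in for replicates of a region. The p-values of this comparison thus measure the spread between segments of at most 3 calves, not between animals. CLCA1 ranged from 6.35 to 13.1 CPM in the small intestine and from 16.5 to 53.0 CPM in the large intestine. Its log2 difference of small against large was -1.62 ± 0.559 (edgeR adjusted p = 0.222). Without the highest CLCA1 barcode of each library the ranges were 5.86 to 12.1 CPM and 3.03 CPM (cecum) to 30.3 CPM (colon), so that the groups overlapped. SPINK4 ranged from 1099 to 4569 CPM and from 636 to 10940 CPM (-0.62 ± 1.11, adjusted p = 0.807), and AGR2 from 2045 to 2722 CPM and from 832 to 3079 CPM (0.18 ± 0.512, adjusted p = 0.885). Of 11991 genes tested, 20 were called higher in the small intestine (0.167%) and 74 in the large intestine (0.617%), and none of the 3 members was among them. Without the colon the difference of SPINK4 turned to 1.58 (adjusted p = 0.238) and that of CLCA1 shrank to -0.80 (adjusted p = 0.241). The total of 94 called genes fell to 0 without the duodenum, the jejunum, the cecum or the rectum (1179 to 1891 genes at an unadjusted p under 0.05), and rose to 486 without the ileum and to 237 without the colon. Over all 6 libraries, MUC1 (-4.41, adjusted p = 0.0207) of 3 other mucins, CHST4 (-9.02, adjusted p = 0.0357) and GCNT3 (-3.40, adjusted p = 0.0360) of 14 mucin glycosylation genes, and RAB27B (-2.35, adjusted p = 0.0364) and SYTL2 (-2.93, adjusted p = 0.0426) of 9 granule and exocytosis genes were called higher in the large intestine, and none of these lists had a gene called higher in the small intestine. The summed stromal and endothelial markers were 134 to 454 CPM in small intestinal EPCAM barcodes, 132 CPM in the colon, 3850 CPM in the cecum and 3740 CPM in the rectum. With barcodes of COL1A2 or PECAM1 left out, 39 genes were called higher in the small intestine and 125 in the large intestine. The log2 difference of CLCA1 was then -1.93 ± 0.366 (edgeR adjusted p = 0.05995). The part of stromal and endothelial markers in these differences was not tested further.

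Newborn and adult levels were set side by side in the 4 tissues that had both stages, with no test since each had 1 library. Of 12 pairs of gene and tissue, 7 were higher at the NB stage and 3 at the AD stage with intervals apart, and 2 overlapped. With doublets left in, 6 were higher at the NB stage and 5 at the AD stage, and 1 overlapped. Without the barcode that held the most UMIs of the gene in each library, 7 were higher at the NB stage and 4 at the AD stage. The share of all genes with intervals apart was not counted, so these tallies are no result about the members. Deep sums part the intervals at small ratios, as for AGR2 in the cecum (1.075, 1.024 to 1.129). In the cecum SPINK4 stood at 636 CPM at the NB stage and 9183 CPM (9085 to 9281) at the AD stage, and CLCA1 at 19.4 and 877 CPM (847 to 908). Without the highest barcode these values were 465 and 8622 CPM of SPINK4, and 3.03 and 781 CPM of CLCA1. AGR2 in the cecum was nearly level, at 832 and 774 CPM (745 to 803), and its order of the stages depended on the barcodes kept. It stood at 1183 against 774 CPM without barcodes of COL1A2 or PECAM1 (a ratio of 1.53), at 927 against 1543 CPM with mitochondrial UMIs under 10% (0.601), and at 645 against 716 CPM without the highest barcode, which held 885 of the 3868 NB UMIs. The summed stromal and endothelial markers of the cecal EPCAM barcodes were 3850 CPM at the NB stage and 0.545 CPM at the AD stage, where 6 of the 7 were at 0. Without barcodes of COL1A2 or PECAM1, the NB cecum stood at 1012 CPM of SPINK4 and 33.3 CPM of CLCA1, with the AD values as before. With mitochondrial UMIs under 10%, the AD cecum stood at 22610 CPM of SPINK4 and 2195 CPM of CLCA1, against 710 and 24.1 CPM in the NB cecum, so that the AD stage was higher for both genes in either setting. In the colon SPINK4 stood at 10940 CPM at the NB stage and 615 CPM (580 to 652) at the AD stage, a ratio of 17.8 (16.8 to 18.9). The ratio was 7.30 (7.03 to 7.58) with doublets left in and 5.49 with doublets and large barcodes kept. In the AD colon 673 of the 1125 SPINK4 UMIs lay in 1 barcode, and without the highest barcode at either stage SPINK4 stood at 10660 and 249.6 CPM, a ratio of 42.7. The size of this difference thus moved with the barcodes kept, while its direction stayed. CLCA1 in the colon stood at 53.0 and 188 CPM (169 to 209). In 1 barcode each lay 224 of the 521 NB UMIs and 184 of the 344 AD UMIs of CLCA1, and without them it stood at 30.3 and 88.2 CPM (75.0 to 103). AGR2 in the colon stood at 2713 and 692 CPM (654 to 731). SPINK4 and CLCA1 thus had opposite orders of the stages in the colon and the same order in the cecum, with and without the highest barcodes. TFF3, not a member, was higher at the AD stage in both, at 514 and 1687 CPM in the colon and 295 and 4112 CPM in the cecum. It was higher at the NB stage in the duodenum (816 and 11.9 CPM) and jejunum (1007 and 667 CPM). With doublets left in, the jejunum turned to 964 and 3917 CPM of TFF3.

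Both genes were again held by few barcodes in the adult large intestine. In the AD cecum, 42 of 305 EPCAM barcodes (13.8%) had at least 3 SPINK4 UMIs and held 99.8% of its UMIs. SPINK4 stood at 55030 CPM in these 42 barcodes, CLCA1 at 5182 CPM, TFF3 at 21660 CPM and AGR2 at 2783 CPM, and 73.8% of them held a CLCA1 UMI, against 9.69% of the 258 SPINK4 barcodes of the NB colon and 26.1% of the 23 of the NB cecum. The median depths of these classes were 14983.5, 14748 and 6866 UMIs, so that the NB cecum was the shallowest. A CLCA1 UMI was held by 0.363% of the PTPRC barcodes of the AD cecum, 0.132% of those of the NB colon and 0.0442% of those of the NB cecum, and a SPINK4 UMI by 7.92% in the AD cecum and 2.62% in the AD colon. In the AD colon only 11 of 177 EPCAM barcodes (6.21%) were SPINK4 barcodes. Of the 8 AD colon barcodes with at least 3 CLCA1 UMIs, 2 held a SPINK4 UMI.

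In the small intestine the stages were harder to compare. The AD duodenum had 33 EPCAM barcodes, with 0 UMIs of SPINK4 and CLCA1 (each allowing up to 17.9 CPM, and a UMI in up to 9.09% of barcodes, which limits barcodes with a UMI and not cells that express the gene) and 4 UMIs of AGR2 (23.9 CPM, 6.50 to 61.1), against 1099, 13.1 and 2535 CPM in the NB duodenum. The summed leukocyte markers of those 33 barcodes were 6670 CPM, against 221 CPM in the NB duodenum. At least 2 EPCAM UMIs were held by 6 of the 33, and by 2841 of the 3385 of the NB duodenum. Barcodes with both EPCAM and PTPRC, left out at both stages, numbered 145 in the AD and 120 in the NB duodenum. They numbered 364 in the AD cecum and 275 in the AD colon, beside 305 and 177 EPCAM barcodes, and 186 and 144 in the NB cecum and colon, beside 452 and 867. Of the 188 AGR2 UMIs of the whole AD duodenum library, 73 lay in removed doublets and 93 in barcodes over 4000 genes or 50000 UMIs. With doublets left in, AGR2 stood at 203.5 CPM, against 2638 CPM in the NB duodenum. With doublets and large barcodes kept it stood at 332.5 against 2387 CPM. The NB stage stayed higher, while the ratio fell from 106 to 7.18. The NB jejunum stood at 3032 CPM of SPINK4, 6.35 CPM of CLCA1 and 2722 CPM of AGR2, and the AD jejunum at 30.1 CPM (22.4 to 39.7), 11.4 CPM (6.89 to 17.9) and 455 CPM (423 to 488). Of the 19 CLCA1 UMIs of the AD jejunum 18 lay in 1 barcode, and without it the level was 0.603 CPM (0.0153 to 3.36), from 1 UMI. The NB jejunum without its highest barcode stood at 5.86 CPM (4.67 to 7.27), so that the order of the stages turned for CLCA1. The summed leukocyte markers of these EPCAM barcodes were 1670 CPM in the AD jejunum and 512 CPM in the NB jejunum, and their part in the stage differences was not tested. In the AD jejunum, however, 95.1% of the SPINK4 UMIs, 88.4% of the CLCA1 UMIs and 69.1% of the AGR2 UMIs lay in barcodes removed as doublets. Of the 30 removed barcodes with at least 3 SPINK4 UMIs, 28 held EPCAM and 5 held PTPRC, and their median was 18677 UMIs and 3081 genes. With doublets left in, the AD jejunum stood at 4026 CPM of SPINK4, 997 CPM of CLCA1 and 1773 CPM of AGR2, against 2863, 5.82 and 2559 CPM in the NB jejunum, so that the order of the stages turned for SPINK4, the intervals of CLCA1 came apart, and the order stayed for AGR2. The stage order of SPINK4 in the jejunum was thus set by whether these barcodes were kept.

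**Figure D4:**
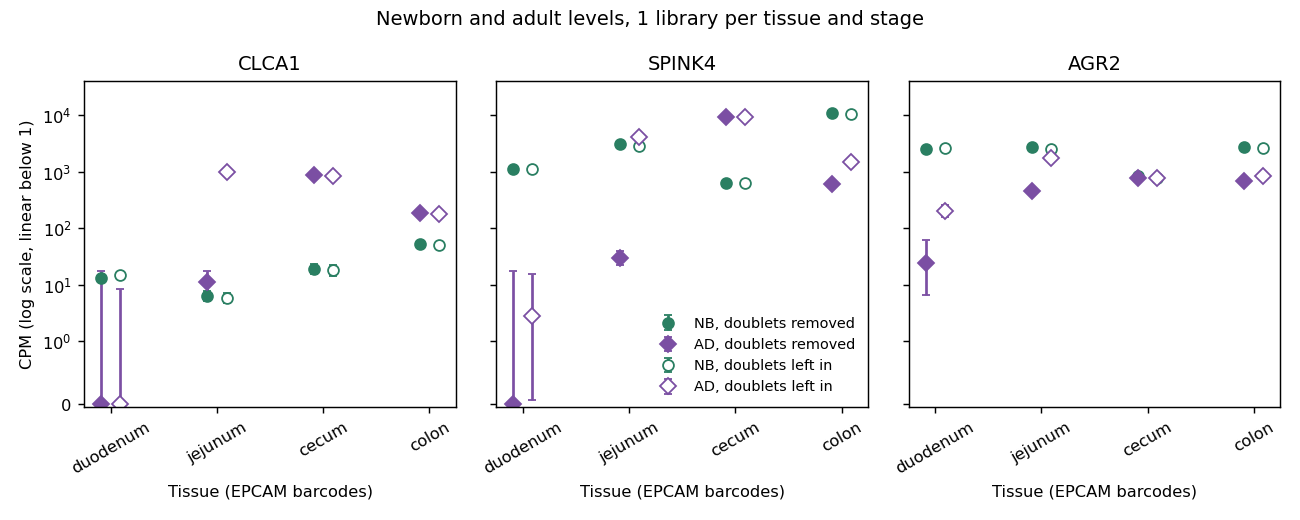
CPM in EPCAM barcodes (vertical axis, logarithmic above 1 and linear below) of CLCA1, SPINK4 and AGR2 in the 4 tissues with both stages, NB (circles) and AD (diamonds), with doublets removed (filled) and left in (open). Bars are 95% Poisson intervals, ending at 3 counts where the count is 0. SPINK4 in the AD jejunum moves from 30.1 to 4026 CPM when doublets are left in, while the cecum stays at 9183 and 9106 CPM.

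Over all genes with at least 10 CPM at either stage, a fold of over 4 (with 1 CPM added to both) was passed at the following rates. In the duodenum 19.0% of genes were higher at the NB stage and 11.6% at the AD stage, and all 3 members were in the first group, CLCA1 with overlapping intervals. In the jejunum the rates were 5.42% and 5.14%, with SPINK4 and AGR2 in the NB group, neither of which passed a fold of 4 with doublets left in, when CLCA1 passed it in the AD direction (the rates over all genes are with doublets removed). In the cecum the rates were 7.88% and 2.36%, with SPINK4 and CLCA1 in the AD group. In the colon they were 2.01% and 4.84%, with SPINK4 in the NB group.

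Removed barcodes also held much of the members elsewhere. Barcodes over 4000 genes or 50000 UMIs held 60.4% of the SPINK4 UMIs of the NB rectum, and 73.6%, 59.3% and 55.5% of the AGR2 UMIs of the NB cecum, colon and rectum. In the AD colon, barcodes removed as doublets held 54.2% of the SPINK4 UMIs. With doublets and such large barcodes kept, SPINK4 was 6935 CPM in the NB colon and 1262 CPM in the AD colon, and 285 and 7600 CPM in the NB and AD cecum, so that the order of the stages in these 2 tissues stayed.

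**Figure D5:**
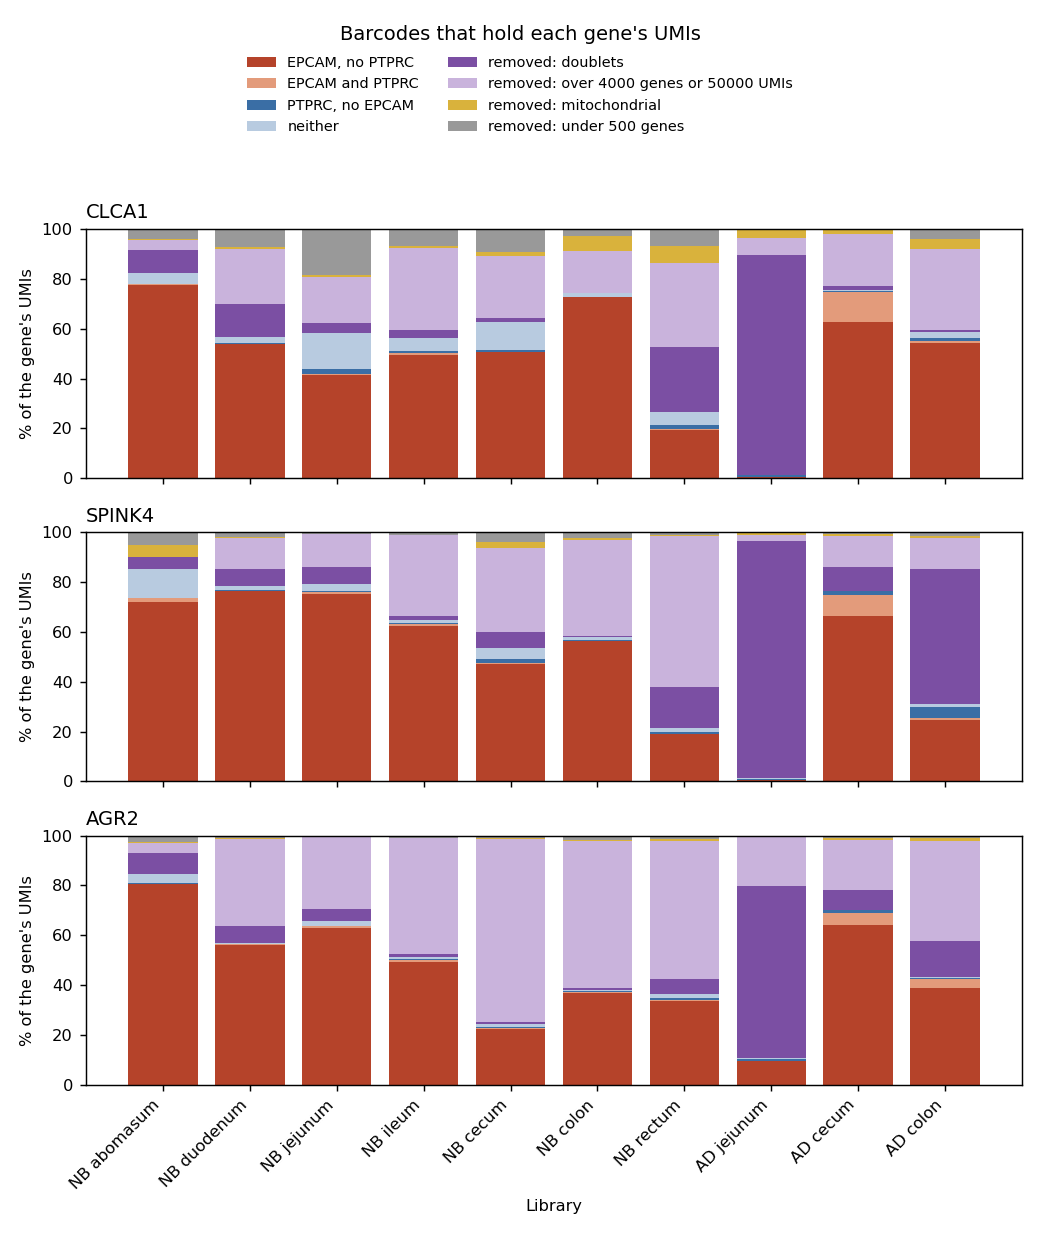
Percent of each gene's UMIs in a library (vertical axes, 0 to 100) by the kind of barcode that held them, for the NB abomasum, the 6 NB intestinal libraries and 3 AD libraries (the AD duodenum, with 14 CLCA1 and 91 SPINK4 UMIs in all, is left out). EPCAM barcodes hold the largest part of all 3 genes in the NB abomasum, and barcodes removed as doublets hold 95.1% of SPINK4 in the AD jejunum.

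The genes most like each member over the 15 libraries were found from log2(CPM + 1) in EPCAM barcodes, among 8790 genes that reached 20 CPM in at least 1 library. REG4, a secreted lectin of the gut, was closest to SPINK4 (Pearson r = 0.985 over 15 libraries), followed by a gene without a symbol (0.977) and ATOH1 (0.970). PPP1R1B (0.938), AGR3 (0.911) and RAB26 (0.902) were closest to AGR2. TMEM92 (0.896), ITPKA (0.853) and TFF2, a trefoil peptide (0.844), were closest to CLCA1. Among the members, SPINK4 and AGR2 were at 0.783, CLCA1 and AGR2 at 0.625, and CLCA1 and SPINK4 at 0.545. These values describe 15 libraries of different tissues and depths and carry no test.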

How the data were processed

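Droplet libraries (10x Genomics, 3-prime) were prepared from 11 NB and 4 AD cattle tissues. Per the labels and the study's methods, the authors made the deposited counts with Cell Ranger 3.1.0 on the ARS-UCD1.2 genome: unnormalized UMI numbers of each gene in each barcode. The annotation release is not given in the sources used here.

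After the study's methods, a barcode was kept if its genes numbered 500 to 4000, its UMIs stayed below 50000 and mitochondrial UMIs (13 genes) made up less than 40%. Doublets were scored by a Scrublet-type method (2000 variable genes, 30 principal components, 2 simulated doublets per barcode), and barcodes were removed from the top of the ranking at a rate of 0.8% per 1000 barcodes, since the study's doublet caller was not used here. Levels are CPM of summed UMIs, with exact intervals. Where a count was 0, the upper limit is 3 counts.

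Tests across genes used edgeR's quasi-likelihood F test on sums per library (TMM, filter on low counts, Benjamini-Hochberg adjustment, threshold 0.05). The library was a block in the SPINK4 comparison, because both sums come from the same library. The SE was derived from the log2 difference and the F statistic. The fits were tested on simulated data first. Total UMIs per library were 17707625 to 129458578, and a library entered the barcode comparison with at least 20 barcodes in each class. The comparison had been planned with MUC2 or, failing that, the first listed member found. CLCA1 at 3 UMIs left only the NB duodenum (45 barcodes, against 3 to 19 elsewhere), so SPINK4 at 3 UMIs is reported. SPINK4 itself is no result there, being 0 by construction in 1 class.

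Named genes were the members, examples from fixed lists, the first 8 genes in each direction outside the lists that were called and moved the same way in all 6 libraries, and the 3 genes most like each member. Identifiers without a symbol were named at most 2 times in each direction. Stomach genes (TFF1, CYM, ATP4A, ATP4B) were added after their values had been seen. The members and lists were chosen with earlier results of these data known. Genes under the 119 symbols that stood on more than 1 row were kept apart by identifier. Python 3.11.15, NumPy 2.4.6, SciPy 1.17.1, pandas 2.3.3, scikit-learn 1.9.0, matplotlib 3.10.9, R 4.3.3, edgeR 4.0.16 and DESeq2 1.42.0 (an alternative) were used.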

Additional observations from a re-analysis of the deposited data

Results flagged for a closer look

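The difference between stages went in opposite directions among tissues for SPINK4, and this difference was not tested. The AD cecum was dissociated with another kit than the AD jejunum and colon, so tissue and kit cannot be told apart. The ratio of NB to AD CPM was 100.7 in the jejunum and 17.8 in the colon, and 0.0693 in the cecum. With doublets left in, it was 0.711 in the jejunum, 7.30 in the colon and 0.0701 in the cecum.

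A signal of the members stood in barcodes that the comparisons left out. In the AD jejunum, barcodes removed as doublets held 95.1% of the SPINK4, 88.4% of the CLCA1 and 69.1% of the AGR2 UMIs, and in the AD colon they held 54.2% of the SPINK4 UMIs. Barcodes over 4000 genes or 50000 UMIs held 60.4% of the SPINK4 UMIs of the NB rectum and 73.6%, 59.3% and 55.5% of the AGR2 UMIs of the NB cecum, colon and rectum. The 20 barcodes with the most UMIs of SPINK4 held 94.1% of its UMIs in the whole AD jejunum library of 14576 barcodes, and 28.3% of those in the NB colon.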

How the results depend on the processing

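The rises of CLCA1 and AGR2 in SPINK4 barcodes kept their direction and their adjusted p under 0.05 in the 22 alternatives run on these barcodes, CLCA1 with log2 differences of 5.89 to 8.76 (adjusted p at most 0.000939) and AGR2 with 2.29 to 3.78 (adjusted p at most 0.00737). The total of genes called in that comparison was 2196. It was 1195 with no replicate block (574 higher and 621 lower), 1458 without barcodes of COL1A2 or PECAM1 (5 libraries), 557 after thinning to 1000 UMIs (5 libraries, 3206 genes tested), 625 with the barcodes chosen by at least 1 CLCA1 UMI (4 libraries), 1220 with at least 1 SPINK4 UMI, 3533 with library totals in place of TMM, and 1558 to 1961 when 1 library was left out. The NB cecum, under 20 SPINK4 barcodes, was the library lost there and with at least 10 SPINK4 UMIs, at least 2 EPCAM UMIs or mitochondrial UMIs under 10%. At least 3 CLCA1 UMIs gave no fit.

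The total of genes called between NB small and large intestine was 94, and it was 1003 with DESeq2, 151 with all deposited barcodes, 164 without COL1A2 or PECAM1, 196 with at least 2 EPCAM UMIs, 59 with PTPRC barcodes kept, and 0 to 486 when 1 library was left out. With 1 library left out, CLCA1 lay between -1.96 and -0.80 (the latter without the NB colon), SPINK4 lay between -1.14 and 1.58 (the latter without the NB colon) and AGR2 between -0.21 (without the NB cecum) and 0.44. AGR2 turned to -0.14 with all deposited barcodes, -0.16 with doublets and large barcodes kept, -0.052 with no limit on genes and -0.043 without COL1A2 or PECAM1. CLCA1 was at -1.93 without COL1A2 or PECAM1 (edgeR adjusted p = 0.05995) and at -1.61 with DESeq2 (DESeq2 adjusted p = 0.0647). None of these values passed the threshold.

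Of the stage differences, NB minus AD CPM of SPINK4 in the jejunum turned to -605 with all deposited barcodes, -1163 with doublets left in and -713 with doublets and large barcodes kept. CLCA1 in the jejunum, with overlapping intervals, turned from -5.09 to 6.52 with mitochondrial UMIs under 10% (1 AD UMI). It turned as well without the highest barcode, at 5.86 CPM in the NB and 0.603 CPM (1 UMI) in the AD jejunum, with intervals apart. AGR2 in the cecum turned to -18.9 with doublets left in, -39.5 with the mean of CPM over barcodes, -71.0 without the highest barcode and -615.6 with mitochondrial UMIs under 10%. The median summed CPM of the 3 members over the 6 NB intestinal libraries was 5130. It was 4934 with no limit on genes, 6716 with mitochondrial UMIs under 10%, 4681 with all deposited barcodes, 5571 with doublets left in, 5987 with at least 2 EPCAM UMIs, 5787 without COL1A2 or PECAM1, 4398 with PTPRC barcodes kept, 4739 with doublets and large barcodes kept, 5797 without mitochondrial UMIs and 4352 as a mean over barcodes. The library totals, the SPINK4 thresholds of 1 and 10 UMIs, the setting that kept both doublets and large barcodes, and the one without the highest barcode of a gene were chosen after seeing the data. The causes of these changes were not tested. With 33 to 305 EPCAM barcodes per AD library, the depth of the AD values is limited by few barcodes.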
